A study of Homo sapiens with 9 samples.

Results

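The 10 genes described here encode RNA-binding proteins that steer alternative splicing in nerve and muscle cells and that lie outside the PTB family: RBFOX2, MBNL1, MBNL2, CELF1, CELF2, NOVA1, NOVA2, ELAVL1, QKI and KHDRBS3. They were taken by their symbols from a table of 22295 entries, and all 10 were found there and passed the filter on low values. In U251 cells QKI, NOVA1 and KHDRBS3 rose between 3 and 7 days of PTBP1 knockdown, by 1.71, 1.67 and 1.35 times in mean level, and in each of them every 7-day library was above every 3-day library. Of all entries tested, 20.3% rose between these days, and in 62.3% the 2 knockdown groups did not overlap, in either direction. The mean of NOVA2 at 7 days was 1.61 times that of the 3-day knockdown without passing the threshold, and NOVA2 rose against the control. No member passed the test at 3 days of knockdown, and RBFOX2 was the only member that passed in the lower direction, in sh-Ptbp1-7d versus sh-Luci-3d. In that comparison 20.6% of all entries rose and 15.0% fell. The NOVA2 and RBFOX2 calls in it were made in 8 of 21 and 10 of 22 alternative settings.

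These proteins bind short motifs in pre-mRNA and promote or block the use of nearby exons, often depending on whether they sit upstream or downstream of the exon. PTBP1, a repressor of many neuronal exons, acts on the same transcripts as several of them, and its replacement by PTBP2 is a known step of neuronal differentiation. RBFOX, NOVA and ELAVL proteins are best known from neurons, MBNL and CELF proteins as opposing regulators in muscle and heart, and QKI from glia and myelination. Gene-level values do not measure exon inclusion and do not separate isoforms, so neither the activity of these proteins nor, for example, the nuclear and cytoplasmic isoforms of QKI were measured.

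RNA sequencing was carried out on 9 libraries, 3 in each of 3 groups, of U251 cells, an established line of human glioblastoma. The sh-Luci-3d cells had received a lentivirus with a short hairpin RNA against luciferase 3 days earlier, the sh-Ptbp1-3d cells a hairpin against PTBP1 for 3 days, and the sh-Ptbp1-7d cells the latter for 7 days. All groups were moved 2 days after infection to a neuronal induction medium containing forskolin and dorsomorphin. Libraries of sh-Luci at 7 days were not analysed here, so the duration of the knockdown and the days in the medium cannot be told apart in either comparison with sh-Ptbp1-7d. No label says whether the 3 libraries of a group came from separate cultures, and the p-values measure the spread between libraries, which may be technical.

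Levels are FPKM, in which fragments are divided by transcript length and by the mapped total of a library, which puts genes of different length on one scale. Differences are log2 fold changes of FPKM + 0.1 from limma with its standard error and adjusted p, and they understate the change of genes with low levels. Thresholds were an FDR of 0.05 for sh-Ptbp1-3d versus sh-Luci-3d and 0.01 for the comparisons with sh-Ptbp1-7d, and a fold change of 2 as a second criterion. "Rose" and "fell" are used for differences past the FDR threshold. The depth of the libraries is unknown.

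The targeted gene was at 110.7, 111.9 and 124.4 FPKM in the sh-Luci-3d libraries, at 66.2, 64.4 and 61.0 in sh-Ptbp1-3d, and at 49.7, 50.7 and 51.0 in sh-Ptbp1-7d. The 3 groups of PTBP1 values did not overlap. Its log2 fold change was -0.85 at 3 days (standard error 0.0725, limma adjusted p = 0.00314) and -0.34 from 3 to 7 days (standard error 0.0725, limma adjusted p = 0.00283). Of the astroglial and glioma markers, VIM was at 4168, 4381 and 1169 FPKM in the control, 3-day and 7-day knockdown means. In the same order CD44 was at 182, 166 and 62.3 FPKM and NES at 40.5, 45.9 and 36.4. SOX2 was at 105.7, 124.5 and 144.8 FPKM and rose against the control (limma adjusted p = 0.00184). GFAP, S100B and OLIG2 were below 1 in every group mean. Of these, S100B rose against the control, from 0.121 to 0.797 FPKM at 7 days (limma adjusted p = 0.00153). The summed level of that list of 7 genes was 4418 to 4543, 4528 to 4836 and 1352 to 1477 FPKM in the libraries of the 3 groups in the same order, and that of 8 neuronal markers was 483 to 520, 554 to 568 and 250.1 to 258 FPKM. The first sum is mostly VIM. The second is mostly TUBB3, at 261, 317 and 118 FPKM in the group means in that order, and NEFL, at 213, 216 and 92.7. MAP2, a marker of mature neurons, went the other way with 22.4, 20.3 and 38.9 FPKM and rose from 3 to 7 days (log2 fold change 0.94, limma adjusted p = 0.000580). SNAP25 was at 1.27, 2.68 and 4.32 FPKM and rose against the control (limma adjusted p = 9.16e-05), and RBFOX3 and SYN1 were below 1 FPKM in every group mean. The 5 skeletal muscle markers summed to at most 0.549 FPKM in any library. The 3 blood and immune markers summed to 9.58 to 17.9 FPKM, and CD68 alone of them was above 1 in the group means. In bulk RNA, fewer cells of a type and less RNA per cell cannot be told apart, and the part that a change of cell state had in the results below was not tested.

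In sh-Luci-3d the order of the mean levels was CELF1, RBFOX2, MBNL1, ELAVL1, KHDRBS3, QKI, MBNL2, CELF2, NOVA1 and NOVA2, from 32.2 ± 3.39 FPKM for CELF1 to 0.701 ± 0.0417 FPKM for NOVA2 (SD, n = 3). Of the neighbours in this order, CELF1 and RBFOX2, MBNL1 and ELAVL1, KHDRBS3 and QKI, and QKI and MBNL2 overlapped between libraries. CELF1 stood at the 86.9th percentile of the 15551 entries tested in that group and NOVA2 at the 20.9th. In sh-Ptbp1-3d only ELAVL1 and MBNL1 changed places. In sh-Ptbp1-7d QKI stood directly below CELF1 and was followed by RBFOX2 and KHDRBS3, with overlap between QKI and RBFOX2 and between RBFOX2 and KHDRBS3, and NOVA1 stood above CELF2 without overlap.

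Over the members, 0 of 10 passed an FDR of 0.05 in sh-Ptbp1-3d versus sh-Luci-3d, where 0.0322% of all entries tested passed and 0.0129% also passed the fold criterion. No member had an unadjusted p under 0.05 there, the limma adjusted p ranged from 0.751 to 0.997, and the median log2 fold change of the members was -0.01 against 0.01 over all entries. In sh-Ptbp1-7d versus sh-Ptbp1-3d, 3 of 10 rose and 0 fell, beside 20.3% of all entries that rose and 15.5% that fell. The members' median log2 fold change was -0.18 and that of all entries 0.09. In sh-Ptbp1-7d versus sh-Luci-3d, 4 rose and 1 fell, beside 20.6% and 15.0% of all entries, with medians of -0.02 and 0.10. No member passed the fold criterion in either of the 7-day comparisons, where 14.2% and 14.6% of all entries did. With 10 members, these counts lie within 1 or 2 genes of what the shares of all entries would give.

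The groups were free of overlap in 1 of 10 members at 3 days (10.8% of all entries), in 8 of 10 from 3 to 7 days (62.3%) and in 8 of 10 for sh-Ptbp1-7d versus sh-Luci-3d (55.9%). In each 7-day comparison, 4 of these 8 were higher and 4 lower. The comparisons share libraries of sh-Ptbp1-3d or sh-Ptbp1-7d or sh-Luci-3d, so their counts are not independent of each other. When the libraries were scaled by median ratios, which placed the median of all entries at 0.01 instead of 0.09 from 3 to 7 days, the members divided into 3 higher (QKI, KHDRBS3, NOVA1) and 3 lower (RBFOX2, MBNL2, ELAVL1), beside 17.3% of all entries higher and 18.6% lower. In sh-Ptbp1-7d versus sh-Luci-3d that scaling gave 2 higher (QKI, NOVA1) and 2 lower (RBFOX2, MBNL2), beside 17.2% and 18.6% of all entries.

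**Figure D1:**
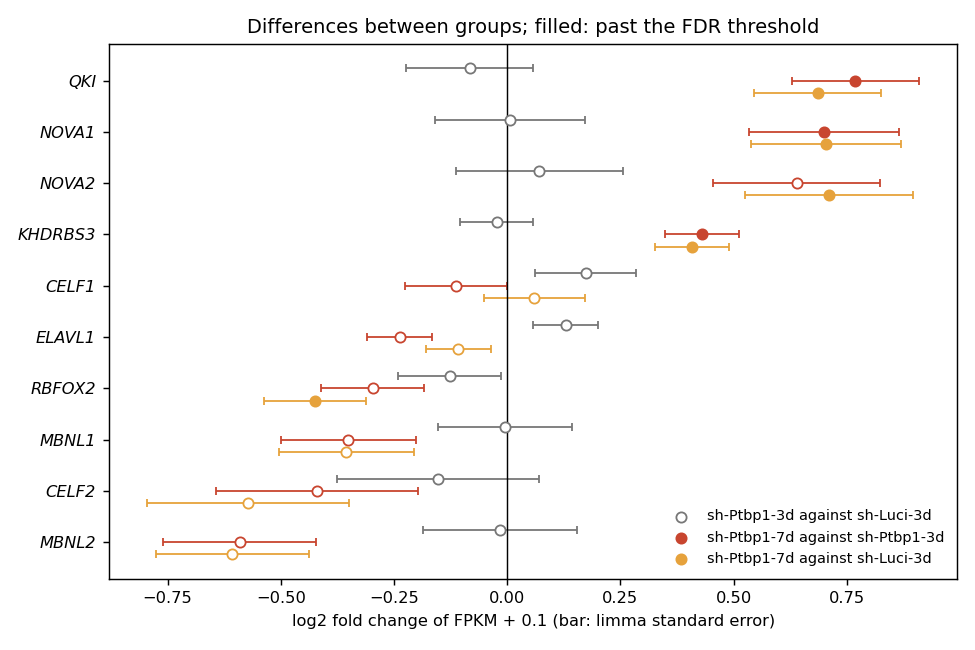
Log2 fold change of FPKM + 0.1 (x axis) of the 10 regulators (y axis, ordered by the change from 3 to 7 days) in the 3 comparisons, with bars for limma's standard error and filled points for differences past the FDR threshold. All 10 grey points of the 3-day comparison are open, and filled points are seen for QKI, NOVA1, KHDRBS3, NOVA2 and, below 0, RBFOX2.

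NOVA1 and NOVA2 are KH-domain proteins that were first described as neuronal antigens and that regulate exons of synaptic transcripts. NOVA1 was at 2.64, 2.81 and 1.98 FPKM in sh-Luci-3d, 2.33, 2.52 and 2.53 in sh-Ptbp1-3d, and 3.48, 4.93 and 3.90 in sh-Ptbp1-7d. NOVA2 was at 0.749, 0.673 and 0.680 FPKM in sh-Luci-3d, 0.614, 0.709 and 0.928 in sh-Ptbp1-3d, and 1.23, 1.22 and 1.18 in sh-Ptbp1-7d. In both genes the 3-day groups overlapped and the 7-day libraries were above all 6 others. NOVA1 rose by 0.70 on the log2 scale from 3 to 7 days (standard error 0.166, limma adjusted p = 0.00502) and by 0.71 from sh-Luci-3d to sh-Ptbp1-7d (standard error 0.166, limma adjusted p = 0.00476). The NOVA2 values were 0.64 (standard error 0.185, limma adjusted p = 0.0145) and 0.71 (standard error 0.185, limma adjusted p = 0.00844), of which the second passed. These calls lay near the threshold. Without sh-Ptbp1-7d replicate 2, the highest NOVA1 library, the NOVA1 adjusted p became 0.0252 and 0.0239. The first NOVA1 call also ended without sh-Ptbp1-7d replicate 3 or any sh-Ptbp1-3d library, the second without sh-Ptbp1-7d replicate 3 or sh-Luci-3d replicate 3, and both without the filter and with quantile normalization. Leaving out any single sh-Luci-3d or sh-Ptbp1-7d library ended the NOVA2 call, which was made in 8 of 21 alternatives. That call also ended without sh-Ptbp1-3d replicate 2, with median-ratio scaling or quantile normalization, with the 2 groups alone and with a replicate block.

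At 3 days the log2 fold change was 0.01 for NOVA1 and 0.07 for NOVA2, with limma adjusted p of 0.997 and 0.948. The sum of the NOVA family was 3.18 ± 0.448, 3.21 ± 0.257 and 5.31 ± 0.745 FPKM in the control, the 3-day and the 7-day knockdown (SD, n = 3). NOVA1 made up 77.7%, 76.8% and 76.9% of it in the same order. The ratio of NOVA1 to NOVA2 within a library was 3.54 ± 0.627, 3.36 ± 0.563 and 3.39 ± 0.619 (SD, n = 3), with overlap between all groups.

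The regions around the transcription starts of the NOVA genes are shown because these paralogs stood higher together at 7 days, and they are windows of 250 bases before to 50 after a start annotated by RefSeq (GRCh38.p14). Capitals mark CG dinucleotides. The table held such a window for 6 of the 10 members, and those of NOVA1, NOVA2, MBNL2 and CELF2 lie upstream of the span that GENCODE v29 gives the gene.
NOVA1, chr14:26597984-26598283, minus strand: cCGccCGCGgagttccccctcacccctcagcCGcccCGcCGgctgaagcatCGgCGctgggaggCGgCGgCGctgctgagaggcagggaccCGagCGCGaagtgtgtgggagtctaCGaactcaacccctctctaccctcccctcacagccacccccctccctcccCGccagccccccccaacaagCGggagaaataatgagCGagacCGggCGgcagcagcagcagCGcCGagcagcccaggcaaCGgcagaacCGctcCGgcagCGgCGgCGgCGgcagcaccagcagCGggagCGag
NOVA2, chr19:45973816-45974115, minus strand: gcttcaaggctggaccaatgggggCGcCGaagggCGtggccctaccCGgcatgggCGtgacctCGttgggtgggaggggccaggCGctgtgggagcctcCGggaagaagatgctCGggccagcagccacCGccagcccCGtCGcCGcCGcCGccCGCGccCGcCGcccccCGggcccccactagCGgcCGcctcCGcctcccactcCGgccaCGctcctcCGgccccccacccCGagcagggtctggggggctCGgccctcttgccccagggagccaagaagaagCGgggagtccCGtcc
The NOVA1 window had 31 CG dinucleotides and 72.7% G or C, and the NOVA2 window 30 and 76.7%. The median of 35116 promoter windows was 14 CG dinucleotides and 58.7% G or C, and 79.3% and 77.6% of all windows had fewer CG dinucleotides than NOVA1 and NOVA2. Both NOVA windows were thus CG-rich, as were those of MBNL1 with 31 and CELF1 with 44, while that of MBNL2 had 4 and that of CELF2 had 7. The MBNL2 window ends at 97141883 on chromosome 13, and GENCODE v29 starts the gene at 97221434. For CELF2 these positions are 10462599 and 10798397 on chromosome 10. The windows of MBNL2 and CELF2 thus lie far before the annotated genes, and their counts need not describe the main starts. Since the culture medium contained forskolin, which raises cAMP, the cAMP response element TGACGTCA was searched on both strands. It was in 0 of the 6 windows and in 1.85% of all windows. Its shorter form TGACG, which is contained in the element, was in 1 of the 6, CELF1, and in 24.6% of all. The E2F motif TTTGGCGC was in 0 of 6 and in 0.652% of all, again on both strands. An absent match says only that these letters are not in the window.

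QKI, a STAR-family protein of glial cells that regulates splicing, mRNA stability and myelin transcripts, is on chromosome 6 from 163414000 to 163578596 (GRCh38, plus strand). It was at 17.3, 16.8 and 11.3 FPKM in sh-Luci-3d, 13.9, 13.8 and 14.4 in sh-Ptbp1-3d, and 25.1, 24.1 and 22.9 in sh-Ptbp1-7d. The 7-day libraries were above all others, and sh-Luci-3d replicate 3 was below all 3 sh-Ptbp1-3d libraries while the other control libraries were above them. QKI rose by 0.77 on the log2 scale from 3 to 7 days (standard error 0.140, limma adjusted p = 0.00103) and by 0.69 from sh-Luci-3d to sh-Ptbp1-7d (limma adjusted p = 0.00208). The first call was made in 22 of 22 alternatives and the second in 21 of 22, the exception being the fit without a filter on low values (limma adjusted p = 0.0149). At 3 days the difference was -0.08 (limma adjusted p = 0.917). Without sh-Luci-3d replicate 3 it was -0.28 and passed (limma adjusted p = 0.0406).

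KHDRBS3, also called SLM2 or T-STAR, is a STAR-family protein of brain and testis and a paralog of KHDRBS1 (SAM68), and it is on chromosome 8 from 135457457 to 135656722 (GRCh38, plus strand). It was at 15.7, 14.7 and 15.7 FPKM in sh-Luci-3d, 14.2, 16.0 and 15.1 in sh-Ptbp1-3d, and 19.4, 20.4 and 21.5 in sh-Ptbp1-7d. The 3-day groups overlapped and the 7-day libraries were above them. It rose by 0.43 on the log2 scale from 3 to 7 days (standard error 0.0815, limma adjusted p = 0.00128) and by 0.41 versus sh-Luci-3d (limma adjusted p = 0.00181). A correction of each library for transcript length and GC content, chosen after seeing the data, ended these calls, with log2 fold changes of 0.28 and 0.30 and adjusted p of 0.0569 and 0.0437. Median-ratio scaling ended that versus sh-Luci-3d (adjusted p = 0.0143).

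KHDRBS1, a widely expressed relative outside the 10 genes, had the opposite direction. It was at 99.2, 97.7 and 101.8 FPKM in sh-Luci-3d, 114.7, 112.3 and 110.0 in sh-Ptbp1-3d, and 71.7, 73.3 and 67.1 in sh-Ptbp1-7d, with no overlap between the groups. It fell by 0.67 on the log2 scale from 3 to 7 days (standard error 0.0667, limma adjusted p = 1.47e-05) in 22 of 22 alternatives. The sum of the KHDRBS family was 115.0 ± 2.54, 127.5 ± 2.02 and 91.1 ± 2.55 FPKM, and KHDRBS3 made up 13.4% ± 0.307, 11.9% ± 0.751 and 22.5% ± 1.62 of it (SD, n = 3), a share that was a description and not tested.

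MBNL1 and MBNL2, the muscleblind proteins, are zinc-finger regulators that are sequestered by expanded repeats in myotonic dystrophy. MBNL1 was at 23.6, 23.1 and 15.6 FPKM in sh-Luci-3d, 20.6, 20.8 and 19.7 in sh-Ptbp1-3d, and 17.4, 16.5 and 14.0 in sh-Ptbp1-7d. MBNL2 was at 12.4, 11.9 and 8.05 FPKM in sh-Luci-3d, 9.82, 12.1 and 9.62 in sh-Ptbp1-3d, and 6.05, 7.06 and 7.76 in sh-Ptbp1-7d. The 7-day libraries were below all sh-Ptbp1-3d libraries in both genes, and in MBNL1 they overlapped with sh-Luci-3d replicate 3. From 3 to 7 days the log2 fold change of MBNL2 was -0.59 (standard error 0.169, limma adjusted p = 0.0139) and that of MBNL1 -0.35 (standard error 0.149, limma adjusted p = 0.0721), and neither passed 0.01. Against sh-Luci-3d the values were -0.61 (limma adjusted p = 0.0122) and -0.36 (limma adjusted p = 0.0692). Without sh-Luci-3d replicate 3 both genes passed in both 7-day comparisons, with log2 fold changes against the control of -0.80 for MBNL2 and -0.55 for MBNL1 (limma adjusted p = 0.000609 and 0.000703). Their summed level with MBNL3 was 35.0 ± 7.02, 33.0 ± 2.06 and 24.9 ± 1.62 FPKM (SD, n = 3) in the groups in the same order as above. The ratio of MBNL1 to MBNL2 was 1.93 ± 0.0262, 1.95 ± 0.210 and 2.34 ± 0.535 (SD, n = 3), and the groups overlapped.

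CELF1 and CELF2 bind GU-rich elements and oppose the muscleblind proteins on many exons. CELF1 was at 36.1, 30.8 and 29.8 FPKM in sh-Luci-3d, 37.1, 37.8 and 33.8 in sh-Ptbp1-3d, and 36.8, 35.6 and 28.6 in sh-Ptbp1-7d. CELF2 was at 5.49, 3.61 and 3.95 FPKM in sh-Luci-3d, 3.89, 2.84 and 5.10 in sh-Ptbp1-3d, and 3.16, 3.09 and 2.35 in sh-Ptbp1-7d. The groups overlapped in every comparison of CELF1, and in CELF2 the control and the 7-day libraries were the only pair of groups without overlap. Neither passed a test, with log2 fold changes from 3 to 7 days of -0.11 (standard error 0.112) and -0.42 (standard error 0.222) and limma adjusted p of 0.428 and 0.141. The gene body of CELF1 on chromosome 11 overlaps NDUFS3 and PTPMT1 on the other strand, and whether the counting used strand is not stated, so the CELF1 level is uncertain to that extent.

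The ratio of CELF1 to CELF2 was 6.57, 8.52 and 7.54 in the sh-Luci-3d libraries, 9.53, 13.3 and 6.63 in sh-Ptbp1-3d, and 11.6, 11.5 and 12.1 in sh-Ptbp1-7d. The sh-Ptbp1-7d libraries were above all sh-Luci-3d libraries (exact permutation test, two-sided, p = 0.1, the smallest that 3 against 3 allows, adjusted p = 0.72 over 9 paralog ratios), so the design could not reach 0.05. In the other 8 comparisons of paralog ratios the groups overlapped, with exact p from 0.4 to 1.

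**Figure D2:**
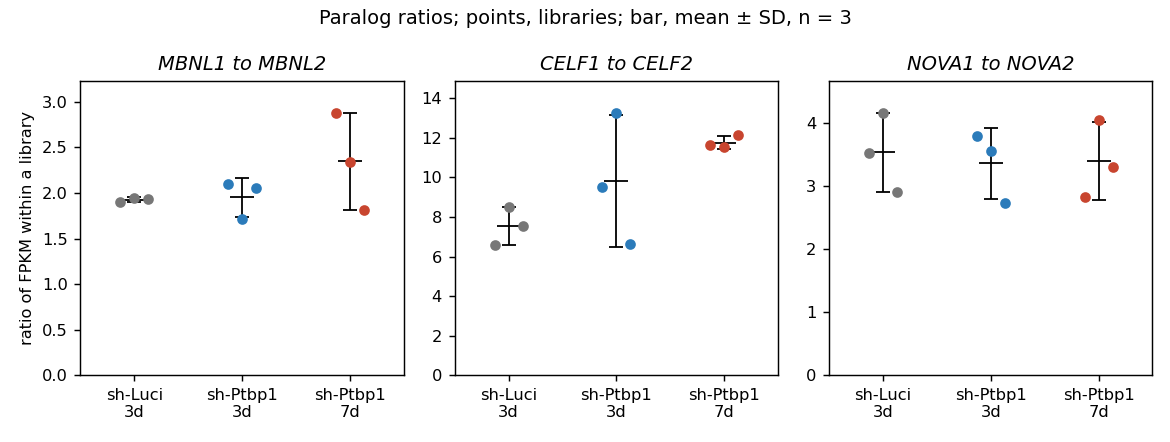
Ratio of FPKM of MBNL1 to MBNL2, CELF1 to CELF2 and NOVA1 to NOVA2 within each library (y axis, linear from 0) in the 3 groups (x axis), with points for libraries and a bar for the mean ± SD, n = 3. CELF1 to CELF2 was 7.54 in the mean of sh-Luci-3d and 11.8 in that of sh-Ptbp1-7d without overlap, and the NOVA ratios overlapped in all groups.

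RBFOX2 is a member of the RBFOX family that is expressed beyond neurons, and it made up 99.3% to 99.9% of the family's summed FPKM in the group means. It was at 31.3, 31.2 and 25.3 FPKM in sh-Luci-3d, 26.6, 27.3 and 26.1 in sh-Ptbp1-3d, and 24.1, 22.7 and 18.6 in sh-Ptbp1-7d. The 7-day libraries were below all others. RBFOX2 fell by 0.42 on the log2 scale from sh-Luci-3d to sh-Ptbp1-7d (standard error 0.114, limma adjusted p = 0.00985), just inside the threshold, and the call was made in 10 of 22 alternatives. Leaving out sh-Luci-3d replicate 1 or 2 gave adjusted p of 0.0393 and 0.0370, and the call also ended without sh-Ptbp1-7d replicate 2 or 3 or any sh-Ptbp1-3d library. From 3 to 7 days the difference was -0.30 (limma adjusted p = 0.0495).

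ELAVL1, or HuR, is the ubiquitous member of a family of AU-rich element binding proteins whose other members are neuronal. It was at 18.9, 18.3 and 19.9 FPKM in sh-Luci-3d, 20.9, 20.7 and 20.8 in sh-Ptbp1-3d, and 17.1, 18.3 and 17.5 in sh-Ptbp1-7d. The sh-Ptbp1-3d libraries lay within a narrow range above all others, and ELAVL1 was the only member whose 3-day groups did not overlap. The sh-Ptbp1-7d libraries were below those of both other groups, with the highest of them just under the lowest control library. Its log2 fold change was 0.13 at 3 days (standard error 0.0722, limma adjusted p = 0.751) and -0.24 from 3 to 7 days (standard error 0.0722, limma adjusted p = 0.0186), and neither passed. ELAVL1 made up 79.0%, 76.6% and 78.9% of the summed FPKM of the ELAVL family.

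Of 30 relatives of these families and other splicing regulators, not all of them tissue-restricted, 22 passed the filter on low values. In sh-Ptbp1-3d versus sh-Luci-3d 0 of the 22 passed the FDR, beside 0.0322% of all entries. An unadjusted limma p under 0.05 was seen for 2 of them, beside 1126 of 15551 entries. From 3 to 7 days 1 rose and 3 fell, beside 20.3% and 15.5% of all entries. The fold criterion was also passed by 2 of these, beside 14.2%. In sh-Ptbp1-7d versus sh-Luci-3d 2 rose and 2 fell, beside 20.6% and 15.0% of all entries. Again 2 also passed the fold criterion, beside 14.6%. The median log2 fold change of the 22 was 0.12, -0.18 and 0.04 in the 3 comparisons, against 0.01, 0.09 and 0.10 over all entries.

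RBM24, a regulator of muscle and heart exons, was at 25.7, 23.2 and 21.5 FPKM in sh-Luci-3d, 25.2, 25.9 and 24.1 in sh-Ptbp1-3d, and 8.76, 9.58 and 7.33 in sh-Ptbp1-7d. All 7-day libraries were far below the others, and RBM24 fell by 1.55 on the log2 scale from 3 to 7 days (standard error 0.109, limma adjusted p = 1.12e-06) in 22 of 22 alternatives. Its paralog RBM38 was at 16.3, 17.5 and 19.9 FPKM in sh-Luci-3d, 20.2, 19.4 and 19.0 in sh-Ptbp1-3d, and 15.2, 15.5 and 14.3 in sh-Ptbp1-7d. RBM38 fell by 0.38 from 3 to 7 days (limma adjusted p = 0.00481), a call that leaving out any single library of the groups compared ended, with adjusted p from 0.0132 to 0.0230. PCBP4, a poly(C)-binding KH protein, was at 8.11, 7.46 and 11.5 FPKM in sh-Luci-3d, 9.97, 9.98 and 9.53 in sh-Ptbp1-3d, and 13.9, 12.1 and 13.4 in sh-Ptbp1-7d. It rose by 0.56 from sh-Luci-3d to sh-Ptbp1-7d (limma adjusted p = 0.00746), and 9 of 22 alternatives made that call. Of the settings that left out a single library, only that without sh-Luci-3d replicate 3 kept it past the threshold. PCBP4 overlaps other listed genes on both strands, so its level is uncertain.

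MSI1, or Musashi-1, an RNA-binding protein of neural progenitors, was below the level set for naming and was named after its values were seen. It was at 0.0738, 0.0594 and 0.211 FPKM in sh-Luci-3d, was at 0.153 and 0.234 and listed at 0 in the sh-Ptbp1-3d libraries, and was at 1.29, 1.29 and 1.53 in sh-Ptbp1-7d. It rose by 2.85 on the log2 scale from 3 to 7 days (standard error 0.437, limma adjusted p = 0.000328), a value that ran from 1.07 to 4.22 over the alternatives. Its paralog MSI2 had means of 33.8, 34.8 and 35.0 FPKM, and was likewise named after its values were seen.

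Of the neuronal relatives, ELAVL2 was at 4.71 to 5.76 FPKM in the group means, and several others were close to 0 in most libraries. CELF3, ELAVL3, ELAVL4 and RBFOX1, like ELAVL2 named after their values were seen, had 0.787, 1.47, 0.390 and 0.149 FPKM in sh-Ptbp1-3d replicate 3, and at most 0.0329 FPKM in any other library. In the same library the neuronal markers STMN2 and DCX were at 11.5 and 2.14 FPKM, while STMN2 was listed at 0 in all 8 others and DCX was at most 0.0346 FPKM in them. Of the members, NOVA1, NOVA2, CELF2 and QKI had their highest sh-Ptbp1-3d value there, by a small margin in NOVA1 and QKI. The same held for 19.9% of all entries tested. RBFOX2, MBNL1, MBNL2 and CELF1 had their lowest sh-Ptbp1-3d value there, beside 52.2% of all entries. Without sh-Ptbp1-3d replicate 3, the NOVA2 difference from 3 to 7 days passed (limma adjusted p = 0.00799). The part of that library in the NOVA2 result was otherwise not tested.

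Certain libraries stood apart in a way that touches these genes. Genes whose longest transcript has at least 5462 nucleotides (2785 of 11134) had a median deviation from their group mean of -0.16 in sh-Luci-3d replicate 3 and -0.15 in sh-Ptbp1-7d replicate 3 on the log2 scale, and of -0.05 to 0.09 in the other 7 libraries. Of the 10 members 9 have such a transcript, MBNL2 being the exception with 4669 nucleotides. In sh-Luci-3d replicate 3, 8 of the 10 members were below their group mean, and the median deviation of the 11134 genes was -0.03. Of the members, MBNL2 had the lowest deviation there, -0.392, and ELAVL1 and KHDRBS3 were at 0.0652 and 0.0315. The part of transcript length in these values was not tested. In that library 6 members (RBFOX2, MBNL1, MBNL2, CELF1, NOVA1 and QKI) had their lowest control value, beside 46.0% of all entries tested. Without that library 993 entries instead of 5 passed the FDR at 3 days. Without it and sh-Ptbp1-7d replicate 3, a setting chosen after seeing the data, QKI and RBFOX2 were lower in the 3-day knockdown than in the control, by log2 fold changes of -0.28 and -0.23 (limma adjusted p = 0.0224 and 0.0340), in a setting where 11.0% of all entries passed at 3 days. From 3 to 7 days 6 members passed in it, QKI, NOVA1 and KHDRBS3 higher and MBNL1, MBNL2 and ELAVL1 lower, beside 24.2% of all entries higher and 18.1% lower.

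**Figure D3:**
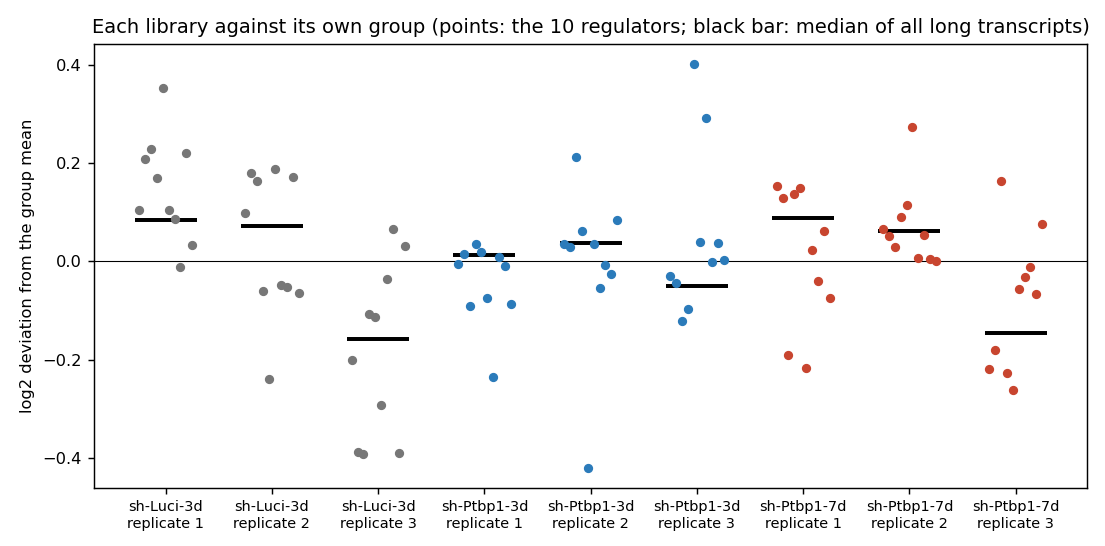
Log2 deviation of each of the 10 regulators from the mean of its own group (y axis) in each of the 9 libraries (x axis), with a black bar for the median of all genes with long transcripts. In sh-Luci-3d replicate 3 and sh-Ptbp1-7d replicate 3 the bar lies at -0.16 and -0.15 and 8 of 10 points are below 0.

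The members also differ in base composition, which the correction for length and GC content used. The GC content of their longest transcripts ran from 36.8% in MBNL2 and 37.2% in KHDRBS3 through 37.8% in NOVA1 and 38.7% in QKI to 57.0% in NOVA2. QKI and NOVA1 passed in both 7-day comparisons with that correction, RBFOX2, MBNL1 and MBNL2 passed in the lower direction in both, ELAVL1 did so from 3 to 7 days, and KHDRBS3 and NOVA2 did not pass. With it, 21.8% of all entries passed higher and 26.2% lower from 3 to 7 days. Against sh-Luci-3d these shares were 21.6% and 26.4%. QKI was the member whose 7-day calls were made in the most alternatives. The lower values of RBFOX2 and the muscleblind genes passed or missed the threshold depending on the libraries left out, the scaling and the settings of the fit.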

How the data were processed

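The authors deposited FPKM values per gene for 9 RNA-seq libraries of U251 cells, 3 in each group, after filtering and aligning the reads. HISAT2 and GRCh38 are named in the submitters' processing notes, and the annotation and the program that made the FPKM values are not given in the sources used here. The authors also deposited coordinates of 2363 assembled loci, used only to check that none overlaps a member (0 of 10). The values carry no whole-read steps, so count tests were not used.

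Values of log2(FPKM + 0.1) for the 15551 entries with a mean of at least 0.1 FPKM were fitted with limma 3.58.1 in R 4.3.3, as 1 model of the 3 groups with an intensity trend, and adjusted by Benjamini-Hochberg over all of them. Paralog ratios were compared with exact permutation tests in scipy 1.17.1. Positions come from GENCODE v29 and promoters from RefSeq. The members, the lists and the tests were chosen with earlier results of these data known. Named were the 10 members, PTBP1, marker genes, and relatives past the FDR with a mean of at least 1 FPKM. Alternatives were 2 pseudocounts, 2 filters, TPM, median-ratio and quantile scaling, entries without assembled loci and mitochondrial genes, 2 groups alone, no trend, a replicate block, and leaving out each library. Chosen after seeing the data were the removal of 2 libraries together and a correction for length and GC content by a spline with 5 degrees of freedom.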

Additional observations from a re-analysis of the deposited data

How the results depend on the processing

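The number of members past the FDR at 3 days was 0, and 0 to 1 when each library was left out, 1 being reached without sh-Luci-3d replicate 3. It was 2 without that library and sh-Ptbp1-7d replicate 3, and relatives past the FDR numbered 0 to 1 and 4 under these settings. From 3 to 7 days the members numbered 3, and 6 with median-ratio scaling, with the 2 groups alone, without both libraries, and with the length and GC correction, and 2 to 6 when each library was left out. The relatives numbered 4, and 7 with the 2 groups alone and without both libraries, 8 with the correction, and up to 7 when each library was left out. Against sh-Luci-3d the members numbered 5, and 2 without a filter and with the 2 groups alone, and 2 to 5 over the libraries left out, while the relatives numbered 4 and reached 8 with the correction. The shares of all entries past the FDR moved as well. At 3 days they were 0.0322%, 6.37% without sh-Luci-3d replicate 3 and 11.0% without both libraries. From 3 to 7 days they were 35.8%, 35.9% with median-ratio scaling, 40.3% with the 2 groups alone, 42.3% without both libraries, 48.0% with the correction and 27.5% to 43.3% when each library was left out. Against the control they were 35.6%, 21.0% without a filter, 30.4% with the 2 groups alone, 48.0% with the correction and 28.0% to 39.8% when each library was left out. TPM moved the median of all entries from 0.09 to 0.20 from 3 to 7 days and from 0.10 to 0.18 against sh-Luci-3d.

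Replicate numbers were shared between groups, and whether they mark pairs or batches is not known. The 9 correlations of deviations between same-numbered libraries lay between -0.0185 and 0.0583. Those between differently numbered libraries ran from -0.122 to 0.161, so the correlations cannot settle it. With the replicate block the members past the FDR numbered 0, 3 and 4 in the 3 comparisons, NOVA2 leaving in the third (limma adjusted p = 0.0143), and the relatives past the FDR numbered 3 and 5 in the comparisons with sh-Ptbp1-7d, RBM38 leaving the first (limma adjusted p = 0.0111). PTBP1 at 3 days had a limma adjusted p of 0.0583 there.

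Signs turned only for differences that passed no test with the settings of the report. Of these, QKI at 3 days did pass in 2 alternatives (limma adjusted p = 0.0406 and 0.0224). At 3 days the correction gave log2 fold changes of 0.0376 for MBNL1, 0.0266 for MBNL2, 0.0205 for KHDRBS3 and -0.0302 for RBM38. NOVA1 at 3 days was -0.0149 with TPM, -0.00644 with median-ratio scaling, -0.00128 with quantile normalization and -0.141 without both libraries. MSI1 at 3 days was 0.0156 with a pseudocount of 1 and 0.291 without both libraries. CELF1 was 0.000396 from 3 to 7 days without both libraries and -0.0402 against the control with median-ratio scaling. The ratio of NOVA1 to NOVA2 against the control was 0.173 on the log2 scale with a pseudocount of 1. When each library was left out, the 3-day log2 fold changes ran from -0.199 to 0.0988 for MBNL1, -0.212 to 0.0981 for MBNL2, -0.353 to 0.0573 for CELF2, -0.141 to 0.0994 for NOVA1, -0.0741 to 0.189 for NOVA2, -0.278 to 0.0270 for QKI, -0.0655 to 0.0197 for KHDRBS3 and -0.366 to 0.504 for MSI1. CELF1 ran from -0.182 to 0.000396 from 3 to 7 days and from -0.00865 to 0.174 against the control. The log2 ratio differences ran from -0.0424 to 0.103 for MBNL1 to MBNL2 at 3 days, and for NOVA1 to NOVA2 from -0.194 to 0.0601 at 3 days, from -0.0725 to 0.181 from 3 to 7 days and from -0.138 to 0.115 against the control. The cause of these changes was not tested.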
